A study of Arabidopsis thaliana with 24 samples.

Results

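The salt response of Wassilewskija (Ws) leaves was measured as the difference between 2 arrays of Ws plants given 100 mM NaCl (Ws_100mM) and 2 arrays of Ws plants given 0 mM NaCl (Ws_0mM), which are 4 of the 24 Affymetrix ATH1 arrays of a study of Arabidopsis thaliana. Membership came from the sample titles, which name the genotype and the NaCl concentration, and every probe set other than array controls was included. Ws is labelled wild type and carries no transgene. Salted and unsalted wild-type Columbia plants (Col_100mM and Col_0mM, background Col-0) and plants of the line labelled Col(gl), also wild type (Colgl_100mM and Colgl_0mM), served as comparisons, with 2 arrays in each group. The remaining 12 arrays, of 3 transgenic lines labelled CBF3, M6PR and SOS1, lent only their replicate spread to the fit.

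All plants had 10 h of light a day and were sampled on day 20 after sowing. Watering with NaCl began on day 14 and was raised by 50 mM every 2 days, so salted leaves were taken 6 days after salt began, and the top of the plant was also sprayed with the solution. Developed leaves not yet senescing were collected from at least 15 seedlings, and the labels call the 2 samples of a group biological replicates from separate pots. Each array is thus a pool of seedlings, and a leaf holds several cell types. Fewer cells of a type and less RNA per cell cannot be told apart in such samples.

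Sodium chloride in the soil lowers the water available to roots, and sodium then accumulates in older leaves. Plants answer the water shortage partly through the hormone abscisic acid, which induces protective hydrophilic proteins such as dehydrins and late embryogenesis abundant (LEA) proteins. Leaf growth slows, the cell wall is remodelled, and photosynthesis and its protective antioxidant enzymes are adjusted.

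The 4 arrays carried leaf RNA by the markers that could be measured. RCA, which encodes Rubisco activase of mesophyll chloroplasts, read 13.82 and 13.89 log2 units in Ws_100mM and 13.89 and 13.94 in Ws_0mM. LHCB4.1, an antenna protein of photosystem II, read 13.41 and 13.43 in Ws_100mM and 13.39 and 13.41 in Ws_0mM. Neither gene separated the groups. The root gene PYK10, a beta-glucosidase, read 6.59 and 3.68 in Ws_100mM and 3.91 and 3.89 in Ws_0mM, so Ws_100mM replicate 1 alone was high.

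Of the 4 arrays, Ws_100mM replicate 1 stood apart in its controls, as did Col_100mM replicate 1. The mean of the dap spike-in probe sets, a bacterial RNA normally added during labelling, was 4.86 and 5.03 log2 units on these 2 arrays, against 7.33 to 9.52 on the other 22. The 25S rRNA probe set read 4.98 and 4.52, against 6.58 to 10.36, and the actin signal was higher at the 3′ end than at the 5′ end by 2.94 and 2.72, against 1.48 to 2.08. The difference between replicates had an SD of 0.488 log2 units over probe sets in Ws_100mM and 0.191 in Ws_0mM. The part of these differences between arrays in the salt response was not tested. For genes described by name, the text says which salt calls in Ws were lost without Ws_100mM replicate 1. That fit compares 1 salted array with 2 unsalted ones, so a call can be lost through lower precision while the change is kept. Calls for a difference from Col or Colgl are given by gene with all arrays only. Which of them depend on Ws_100mM replicate 1 is not stated. With 2 arrays in a group, precision is set by the small number of arrays.

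Salt changed 1072 of 22746 probe sets in Ws (4.71%), 597 higher in Ws_100mM (2.62%) and 475 lower (2.09%). The rises were larger than the falls. Among probe sets that rose the median size was 1.3 log2 units, 149 rose by at least 2 log2 units and 55 by at least 3. Among those that fell the median size was 0.84 log2 units, 13 fell by at least 2 and 1 by at least 3. In all 551 probe sets (2.42%) passed and changed at least 2-fold. A fold change here is a difference of log2 signals and its error is the SE of the fit across all 24 arrays. Calls are at an adjusted p under 0.05 in limma with Benjamini-Hochberg adjustment over all probe sets.

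**Figure D1:**
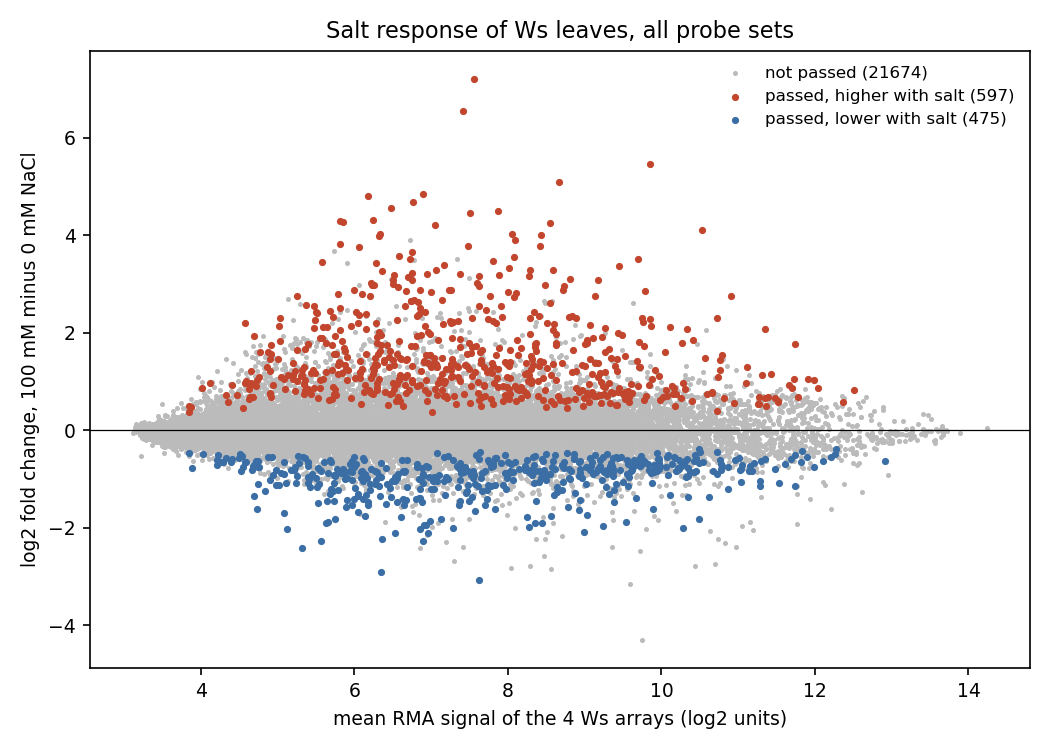
Log2 fold change of each probe set (100 mM minus 0 mM NaCl) against its mean RMA signal on the 4 Ws arrays in log2 units. Red points rose with salt (597), blue points fell (475) and grey points did not pass, and the rises reach 7.21 log2 units while the largest fall that passed is 3.06.

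Probe sets that rose started from a wide range of levels. The median level of the 597 probe sets was 8.31 log2 units in Ws_100mM and 6.57 in Ws_0mM, and 229 of them lay below the median of all probe sets in Ws_0mM. The 475 that fell had a median level of 7.38 in Ws_100mM and 8.30 in Ws_0mM. Calls were rare among dim probe sets. With all probe sets split into 4 equal bins by mean signal, 0.281% rose and 0.387% fell in the dimmest bin, against 5.328% and 3.904% in the brightest.

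The count depended on single arrays. Without Ws_100mM replicate 1 it was 275 (1.21%), of which 247 were among the 1072, and without Ws_100mM replicate 2 it was 1775. Leaving out Ws_0mM replicate 1 or replicate 2 gave 123 or 186. Of the 95 genes that passed and fell under the naming rule of the methods, 29 passed without Ws_100mM replicate 1, and none of the 95 reversed. With each array centred on its median the calls were 533 higher and 836 lower, because the median change of all probe sets became -0.13 in place of -0.03. The excess of rises over falls in number therefore depends on the scaling, while the 55 against 1 beyond 3 log2 units is far above that shift. The 55 and the 1 count passing probe sets alone, and deeper falls that did not pass are left out. Such falls reached -4.29 among plastid-encoded photosystem I genes and -3.14 among plastid-encoded photosystem II genes.

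Genes were taken at their brightest single-gene probe set, which gave 13356 genes, of which 284 (2.13%) rose and 272 (2.04%) fell. A gene counts as measured below where the annotation used gave it such a probe set. In that annotation 8730 of the 22746 probe sets had no gene, so genes not counted may still have been on the array. The values of the 15 largest rises and the 15 largest falls among them are drawn by array in the plot of levels.

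**Figure D2:**
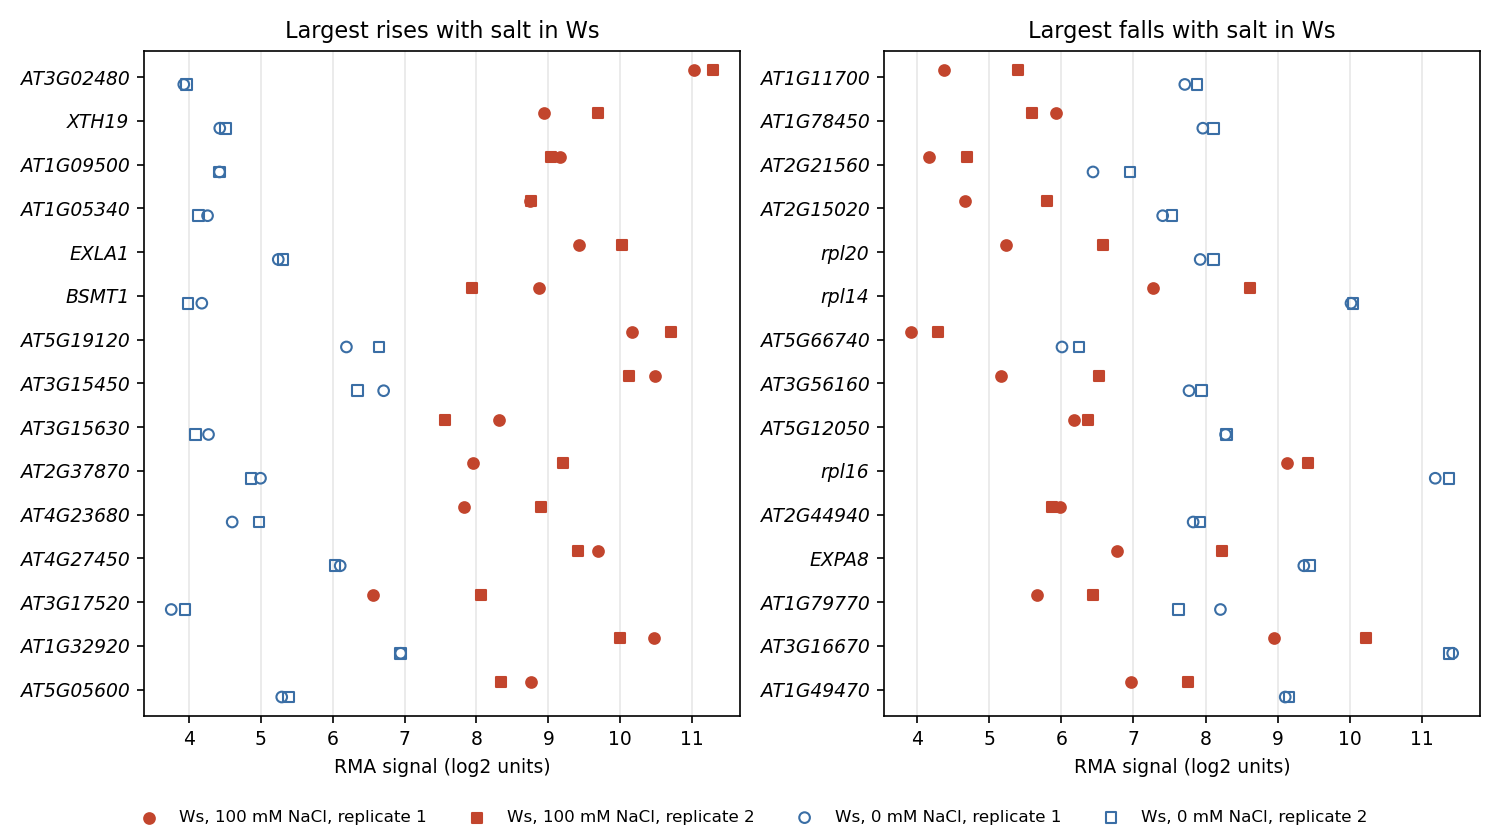
RMA signal in log2 units (x axis) of the 15 genes with the largest rises and the 15 with the largest falls among passing genes with no overlap between groups. Filled red marks are the 2 arrays of Ws_100mM and open blue marks the 2 of Ws_0mM, with circles for replicate 1 and squares for replicate 2, and the space between red and blue marks is wider among the rises.

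The largest rise was that of AT3G02480, which read 11.03 and 11.29 log2 units in Ws_100mM and 3.93 and 3.97 in Ws_0mM. The gene was near the bottom of the signal range in unsalted leaves, and no detection call was used here to show whether it was above background there. Its log2 fold change was 7.21 ± 1.1 (SE, with 2 arrays in each group, adjusted p = 0.0025 in limma), and 7.34 without Ws_100mM replicate 1 (adjusted p = 0.0199).

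Most of the other large rises belonged to genes that the tables used here list by locus alone. AT1G09500 read 9.16 and 9.04 in Ws_100mM and 4.43 on both Ws_0mM arrays (4.67 ± 1.08, adjusted p = 0.0235). AT1G05340 read 8.75 and 8.76 in Ws_100mM and 4.26 and 4.13 in Ws_0mM (4.56 ± 1.1, adjusted p = 0.0289). Their replicates lay within 0.2 log2 units of each other, and neither passed without Ws_100mM replicate 1, when their changes were 4.61 and 4.56. AT5G19120, at 10.17 and 10.70 in Ws_100mM and 6.19 and 6.65 in Ws_0mM, passed with and without it (4.02 and 4.28).

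Among genes that passed, the largest fall was that of AT1G11700, with 4.37 and 5.40 in Ws_100mM and 7.71 and 7.88 in Ws_0mM (-2.91 ± 0.49, adjusted p = 0.0043). AT1G78450 followed, with 5.93 and 5.59 in Ws_100mM and 7.96 and 8.11 in Ws_0mM (-2.28 ± 0.22, adjusted p = 0.00012). Both sets of arrays were well apart. AT2G15020 read 4.67 and 5.81 in Ws_100mM and 7.41 and 7.53 in Ws_0mM (-2.23 ± 0.58, adjusted p = 0.041). Without Ws_100mM replicate 1 AT1G78450 passed, while AT1G11700 (-2.40, adjusted p = 0.0591) and AT2G15020 (-1.66, adjusted p = 0.362) did not.

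Genes for proteins of dehydration and cold rose. Of 14 genes listed as targets of the CBF factors, which activate cold and drought genes, 4 were measured and 3 rose. COR47, a dehydrin, read 10.54 and 11.20 in Ws_100mM and 8.66 and 8.62 in Ws_0mM, a log2 fold change of 2.23 ± 0.29 (adjusted p = 0.00087). COR15A, a small protein of the chloroplast stroma that protects membranes in frozen leaves, read 11.30 and 11.82 in Ws_100mM and 9.87 and 10.15 in Ws_0mM, a change of 1.55 ± 0.18 (adjusted p = 0.00049). LTI30, a dehydrin that was near the floor without salt, read 6.52 and 7.31 in Ws_100mM and 4.40 and 4.51 in Ws_0mM, a change of 2.46 ± 0.44 (adjusted p = 0.0065). The salted arrays were above both unsalted ones for all 3 genes, and each passed again without Ws_100mM replicate 1.

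The fourth, COR15B, a close relative of COR15A, had 8.61 and 9.15 in Ws_100mM and 7.41 and 7.47 in Ws_0mM and just missed the threshold (1.44 ± 0.39, adjusted p = 0.0502). LEA4-5, an LEA protein of drying tissue, read 8.0 and 9.04 in Ws_100mM and 4.73 and 5.31 in Ws_0mM, and its change of 3.5 ± 0.96 also missed (adjusted p = 0.0502). Among the 7 measured LEA and dehydrin genes, which include the 4 above, 3 rose, none fell, and the median change was 1.55, against -0.04 over all 13356 genes.

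**Figure D3:**
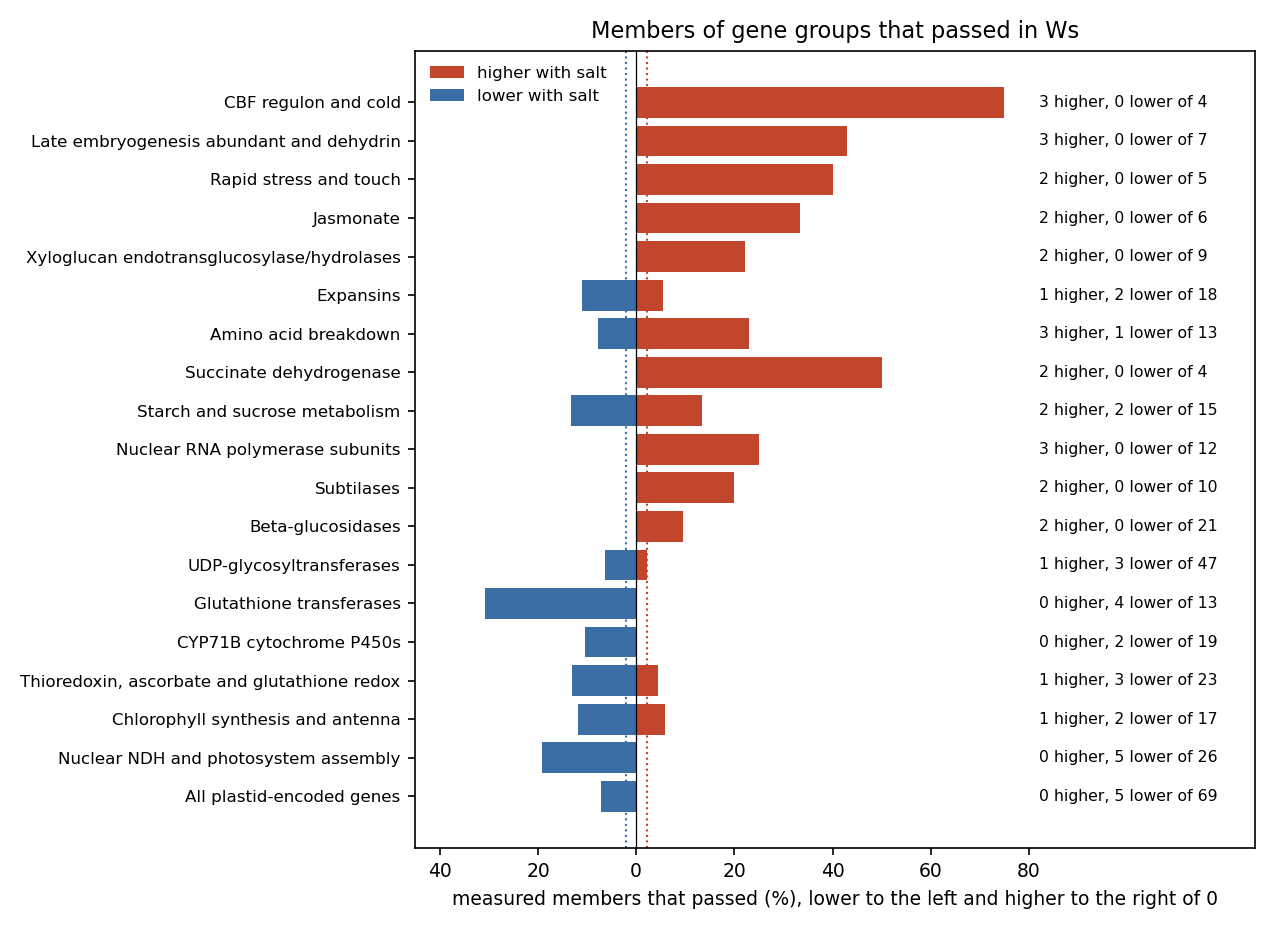
Share of the measured members of 19 gene groups that passed in Ws, higher in Ws_100mM to the right of 0 and lower to the left, with the counts printed at the right. Dotted lines mark the shares over all 13356 genes (2.13% higher and 2.04% lower), and the 5 groups at the top hold rises alone while the NDH and plastid groups at the bottom hold falls alone. Groups were chosen with earlier results of these data known, and some after seeing results, so the shares are a description. The CBF and LEA groups share their 3 rising genes.

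A few genes known for rapid stress responses, jasmonate or senescence rose, and most measured members of these lists did not pass. STZ, a zinc finger repressor, read 7.23 and 8.22 in Ws_100mM and 4.89 and 4.53 in Ws_0mM (3.01 ± 0.62, adjusted p = 0.0128). Of the 5 measured genes of the rapid stress list 2 rose, STZ and the calmodulin-like gene CML37 (0.87 ± 0.22, adjusted p = 0.0355), and the median change was 1.18. CML37 did not pass without Ws_100mM replicate 1 (adjusted p = 0.103). WRKY53, a transcription factor that promotes leaf senescence, read 6.45 and 7.23 in Ws_100mM and 4.81 and 4.76 in Ws_0mM (2.06 ± 0.42, adjusted p = 0.0127). It was the single gene to pass among 4 of the senescence list and among 6 WRKY genes.

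SAG29, a sugar transporter of senescing leaves, had 9.28 and 8.43 in Ws_100mM and 7.26 and 6.81 in Ws_0mM without passing (1.81 ± 0.65, adjusted p = 0.125). Both salted arrays lay above both unsalted ones, with wide spread. Of 6 measured jasmonate genes 2 rose. BSMT1, whose enzyme makes the volatile methyl salicylate, read 8.87 and 7.94 in Ws_100mM and 4.18 and 3.99 in Ws_0mM (4.32 ± 0.92, adjusted p = 0.0156), and it lost its call without Ws_100mM replicate 1 (3.86, adjusted p = 0.14). The AP2/ERF factor gene ORA47 read 6.23 and 8.26 in Ws_100mM and 5.38 and 5.30 in Ws_0mM (1.91 ± 0.42, adjusted p = 0.0192), so its rise lay mostly in replicate 2. The defensin gene PDF1.2, a late jasmonate target, did not pass (-1.21 ± 0.98, adjusted p = 0.567).

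GH3.3, which joins auxin to amino acids, read 7.32 and 8.87 in Ws_100mM and 5.22 and 5.25 in Ws_0mM (2.86 ± 0.44, adjusted p = 0.0025). It was the single riser of 5 GH3 genes. UGT76B1, a glucosyltransferase that acts on salicylate, read 5.22 and 7.15 in Ws_100mM and 3.67 and 4.1 in Ws_0mM (2.30 ± 0.43, adjusted p = 0.0084). The median change of the 47 UDP-glycosyltransferase genes was -0.07, and UGT72E1, UGT72B3 and UGT85A4 fell by 1.39, 1.08 and 0.96 on the log2 scale. UGT76B1 passed without Ws_100mM replicate 1 and these 3 did not (adjusted p = 0.151, 0.0692 and 0.428).

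Cell wall genes moved in both directions, by family and by member. XTH19 and XTH18 encode enzymes that cut and rejoin xyloglucan, the main tether between cellulose fibrils. XTH19 read 8.93 and 9.68 in Ws_100mM and 4.43 and 4.51 in Ws_0mM (4.84 ± 0.61, adjusted p = 0.00081), and it passed under each of the 13 alternative settings tried. XTH18 read 7.74 on both Ws_100mM arrays and 4.68 and 4.87 in Ws_0mM (2.97 ± 0.57, adjusted p = 0.0095), and without Ws_100mM replicate 1 it missed the threshold with the same change (adjusted p = 0.0626). The other 7 of the 9 measured XTH genes did not pass, among them XTH16, at 8.47 and 6.34 in Ws_100mM and 5.39 and 5.29 in Ws_0mM.

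Expansins loosen the wall as cells enlarge. Among 18 measured expansin genes EXLA1, of the expansin-like branch, rose to 9.43 and 10.02 in Ws_100mM, against 5.24 and 5.31 in Ws_0mM (4.45 ± 0.86, adjusted p = 0.0097). The alpha-expansin genes EXPA8 and EXPA4 went the other way. EXPA8 read 6.77 and 8.22 in Ws_100mM and 9.36 and 9.44 in Ws_0mM (-1.91 ± 0.46, adjusted p = 0.0299). EXPA4 read 8.22 and 8.25 in Ws_100mM and 9.52 and 9.5 in Ws_0mM (-1.28 ± 0.29, adjusted p = 0.023). Neither alpha-expansin passed without Ws_100mM replicate 1, where EXPA8 changed by -1.18.

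Among other wall genes CSLD2, a cellulose synthase-like gene, rose by 1.38 ± 0.34 (adjusted p = 0.0303) and GH9B8, an endoglucanase-family gene, fell by 0.96 on the log2 scale (adjusted p = 0.0135). TBL39 and TBL15 belong to a family that includes wall polysaccharide acetyltransferases. TBL39 rose by 1.57 ± 0.24 and TBL15 fell by 0.75, and the other 20 of the 22 measured did not pass. Of 10 subtilases, secreted proteases, SBT3.5 (1.23 ± 0.27) and SBT3.3 (0.64 ± 0.12) rose. Without Ws_100mM replicate 1 TBL39, SBT3.5 and SBT3.3 passed, while CSLD2, GH9B8 and TBL15 did not (adjusted p = 0.144, 0.141 and 0.0986).

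Single members rose in further families of the cell surface and of transcription. These were 1 of 15 tetraspanin genes, 1 of 15 genes for defensins and cysteine-rich peptides and 1 of 17 bZIP genes. Over all genes 2.13% rose, and counts this small describe single genes and not their families. TET8, a tetraspanin of the plasma membrane and secreted vesicles, read 10.25 and 10.14 in Ws_100mM and 8.34 and 8.20 in Ws_0mM (1.92 ± 0.44, adjusted p = 0.0215), and the other 14 tetraspanin genes did not pass. LCR69, for a small defensin-like peptide, read 10.89 and 9.41 in Ws_100mM and 7.21 and 7.35 in Ws_0mM (2.87 ± 0.65, adjusted p = 0.0217). BZIP53, a transcription factor that activates amino acid breakdown genes in starved leaves, read 10.04 and 10.09 in Ws_100mM and 8.30 and 8.62 in Ws_0mM (1.60 ± 0.40, adjusted p = 0.032). Of 21 beta-glucosidase genes BGLU25 (1.08 ± 0.26) and BGLU45 (0.73 ± 0.19), whose enzyme acts on lignin precursors, rose. None of these 5 genes passed without Ws_100mM replicate 1, where TET8 changed by 1.87, LCR69 by 2.13 and BZIP53 by 1.63 with adjusted p from 0.138 to 0.239.

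Several genes of primary metabolism were higher with salt. ALDH7B4, an aldehyde dehydrogenase of the turgor-responsive class, read 11.16 and 11.58 in Ws_100mM and 9.23 and 9.36 in Ws_0mM (2.08 ± 0.41, adjusted p = 0.0104). The lysine breakdown gene LKR/SDH (AT4G33150) read 8.19 and 8.39 in Ws_100mM and 5.41 and 5.43 in Ws_0mM (2.87 ± 0.69, adjusted p = 0.0289), and MGL, which splits methionine, rose by 1.55 ± 0.28 (adjusted p = 0.0061). Of the 13 measured genes of amino acid breakdown these 3 rose and ETFQO, which passes electrons from that breakdown to ubiquinone, fell by 0.53. The median change was 0.07, and the branched-chain genes IVD, MCCA and MCCB did not pass. ALDH7B4 and MGL passed without Ws_100mM replicate 1, while LKR/SDH (AT4G33150, 2.97, adjusted p = 0.138) and ETFQO did not.

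SDH2-1 and SDH2-2, for the iron-sulphur subunit of mitochondrial succinate dehydrogenase, rose. SDH2-1 read 10.48 and 10.31 in Ws_100mM and 9.30 and 9.40 in Ws_0mM (1.05 ± 0.24, adjusted p = 0.0238). A second, dimmer probe set of SDH2-1 did not pass (-0.12, adjusted p = 0.764). SDH2-2 read 8.98 and 9.02 in Ws_100mM and 8.47 and 8.62 in Ws_0mM (0.46 ± 0.11, adjusted p = 0.0345). SDH1-1, for the flavoprotein subunit, had a change of 0.68 ± 0.27 and did not pass (adjusted p = 0.172).

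Among 15 genes matched by symbol to starch and sucrose metabolism 2 rose and 2 fell. A match by symbol does not show that each member acts in that pathway. APL4, a large subunit of ADP-glucose pyrophosphorylase, which supplies starch synthesis, read 7.15 and 7.22 in Ws_100mM and 5.86 and 5.85 in Ws_0mM (1.33 ± 0.26, adjusted p = 0.0098), and the alpha-amylase AMY1 rose by 1.24 ± 0.34. The sucrose-phosphate synthase gene ATSPS4F fell by 1.08 and the starch-branching enzyme gene SBE2.2 by 0.71 on the log2 scale. None of these 4, nor the SDH2 genes, passed without Ws_100mM replicate 1, when 134 of all genes (1%) did.

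Large-subunit genes of the nuclear RNA polymerases that make ribosomal and transfer RNA rose. NRPA1 and NRPA2 encode the large subunits of RNA polymerase I and NRPC1 the largest of RNA polymerase III. NRPA1 read 7.59 and 7.64 in Ws_100mM and 6.13 and 6.27 in Ws_0mM (1.41 ± 0.37, adjusted p = 0.0404). NRPA2 read 8.37 and 8.30 in Ws_100mM and 7.07 and 6.85 in Ws_0mM (1.37 ± 0.29, adjusted p = 0.0137), and NRPC1 changed by 1.07 ± 0.23 (adjusted p = 0.0182). The 12 measured subunit genes had a median change of 0.45, none fell, and NRPC2 missed the threshold (1.1 ± 0.32, adjusted p = 0.0627). None of the 12 passed in limma without Ws_100mM replicate 1, where 4 had an unadjusted p under 0.05 (9.83% of all genes).

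Nuclear genes that build the photosynthetic complexes included several falls and no rise. Of 26 measured genes for the nuclear subunits and assembly factors of the chloroplast NADH dehydrogenase-like (NDH) complex and the photosystems, 5 fell, none rose, and the median change was -0.28. NdhN, an NDH subunit, read 9.69 and 10.00 in Ws_100mM and 10.87 and 10.74 in Ws_0mM (-0.97 ± 0.16, adjusted p = 0.004). CRR42, an NDH assembly factor, read 8.41 and 8.39 in Ws_100mM and 9.17 and 9.30 in Ws_0mM (-0.83 ± 0.16, adjusted p = 0.0108). The others were NdhL (-0.89), the photosystem II assembly factor LPA19 (-0.97) and HCF101 (-0.55), which supplies iron-sulphur clusters to photosystem I. None of the 26 passed in limma without Ws_100mM replicate 1, where 8 had an unadjusted p under 0.05. Of the 26, 20 on Ws_100mM replicate 1 and all 26 on replicate 2 read lower than both unsalted arrays, where 44.4% and 47.7% of all genes did.

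LHCB4.3, an isoform of the minor antenna protein CP29, read 10.94 and 11.04 in Ws_100mM and 12.02 and 12.12 in Ws_0mM (-1.08 ± 0.18, adjusted p = 0.0048). Its sister gene LHCB4.1, given above, did not pass (0.02 ± 0.10). PORB, which makes chlorophyllide in light, went up, with 12.08 and 11.92 in Ws_100mM and 10.76 and 10.95 in Ws_0mM (1.15 ± 0.16, adjusted p = 0.0016). Of 17 measured genes matched by symbol to chlorophyll synthesis and antenna, PORB rose, LHCB4.3 and SIRB (-0.57) fell, and the median change was -0.19. The match was by symbol alone and does not place SIRB in chlorophyll synthesis. SIRB alone of these 3 did not pass without Ws_100mM replicate 1 (adjusted p = 0.323).

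Among genes of redox control 3 for chloroplast proteins fell. TAPX, the ascorbate peroxidase of the thylakoid membrane, read 9.94 and 9.95 in Ws_100mM and 10.80 and 10.79 in Ws_0mM (-0.85 ± 0.15, adjusted p = 0.0049). The chloroplast thioredoxin genes THX and TRXF2 fell by 0.78 and 0.72 on the log2 scale. CCS, the copper chaperone of superoxide dismutase, rose to 9.92 and 10.23 in Ws_100mM, against 9.01 and 9.26 in Ws_0mM (0.94 ± 0.22, adjusted p = 0.0245). The other 19 of 23 redox genes did not pass, and the median change was 0.03. TAPX passed without Ws_100mM replicate 1, while THX, TRXF2 and CCS did not (adjusted p = 0.058, 0.171 and 0.0657).

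Glutathione transferase genes, often induced by chemical stress, held falls alone. Of 13 measured 4 fell, and GSTF4, GSTU18 and GSTL3 did so by 1.07, 0.78 and 0.66 on the log2 scale. The other was GSTU23, which read 4.8 and 5.02 in Ws_100mM and 5.77 and 6.05 in Ws_0mM. Among 26 measured cytochrome P450 genes 2 fell and none rose, where 2.04% of all genes fell. Both belong to the CYP71B group, of which 19 genes were measured. CYP71B5 fell by 1.21 and CYP71B35 by 0.85. None of these 6 genes passed without Ws_100mM replicate 1.

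TRY, which represses trichome formation and was the measured member of the trichome list, read 6.65 and 7.06 in Ws_100mM and 8.07 and 8.37 in Ws_0mM (-1.36 ± 0.33, adjusted p = 0.0276), and without Ws_100mM replicate 1 it did not pass (-1.16, adjusted p = 0.226). Several families with 14 or more measured genes gave no call in limma. At an unadjusted p under 0.05, where 18.1% of all genes lay, there were 3 of 29 serine carboxypeptidase-like genes, 4 of 40 AGAMOUS-like genes, 2 of 14 sugar transporter genes and 2 of 15 IQ-domain genes. None of 4 flavonoid and anthocyanin genes passed, with 1 at an unadjusted p under 0.05. DFR of that list, which makes leucoanthocyanidins, read 9.68 and 6.81 in Ws_100mM and 6.70 and 6.60 in Ws_0mM, high on Ws_100mM replicate 1 alone.

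Genes of the plastid genome, which are transcribed inside chloroplasts and encode photosystem cores, NDH subunits, ATP synthase, RNA polymerase and ribosomal proteins, read lower in salted Ws leaves. Of 69 measured 5 passed, all lower, 48 had an unadjusted p under 0.05 (18.1% of all genes did), and the median change was -1.17, against -0.04 over all genes. The ranges of both groups did not overlap for 65 of the 69, all with Ws_100mM lower, where 32.2% of all genes had that pattern. The spread between replicates was large. For psaA, a photosystem I core subunit, the values were 4.25 and 10.95 in Ws_100mM and 11.87 and 11.93 in Ws_0mM, a change of -4.29 ± 1.88 that did not pass.

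The 5 that passed were rpl16, rpl14, rpl20, psaB and psbI. The ribosomal protein gene rpl16 read 9.13 and 9.42 in Ws_100mM and 11.18 and 11.37 in Ws_0mM (-2.0 ± 0.52, adjusted p = 0.0406). Another ribosomal protein gene, rpl14, read 7.27 and 8.62 in Ws_100mM and 10.02 and 10.05 in Ws_0mM (-2.08 ± 0.52, adjusted p = 0.0345). Both salted arrays lay more than 1 log2 unit under the unsalted ones for these genes. The photosystem I core gene psaB read 12.37 and 12.81 in Ws_100mM and 13.23 and 13.21 in Ws_0mM (-0.63 ± 0.16, adjusted p = 0.0404), and the small photosystem II gene psbI fell by 1.06.

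The depth of the fall differed between the salted arrays. Relative to the mean of Ws_0mM, the median of the 69 genes was -1.98 on Ws_100mM replicate 1 and -0.42 on replicate 2. By complex these medians were -3.40 and -0.58 for 7 photosystem I genes, -1.64 and -0.28 for 15 photosystem II genes, -2.95 and -0.55 for 10 NDH genes and -1.09 and -0.39 for 15 ribosomal protein genes. The direction was shared, since 67 of the 69 genes on replicate 1 and 66 on replicate 2 read below both unsalted arrays, where 44.4% and 47.7% of all genes did.

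**Figure D4:**
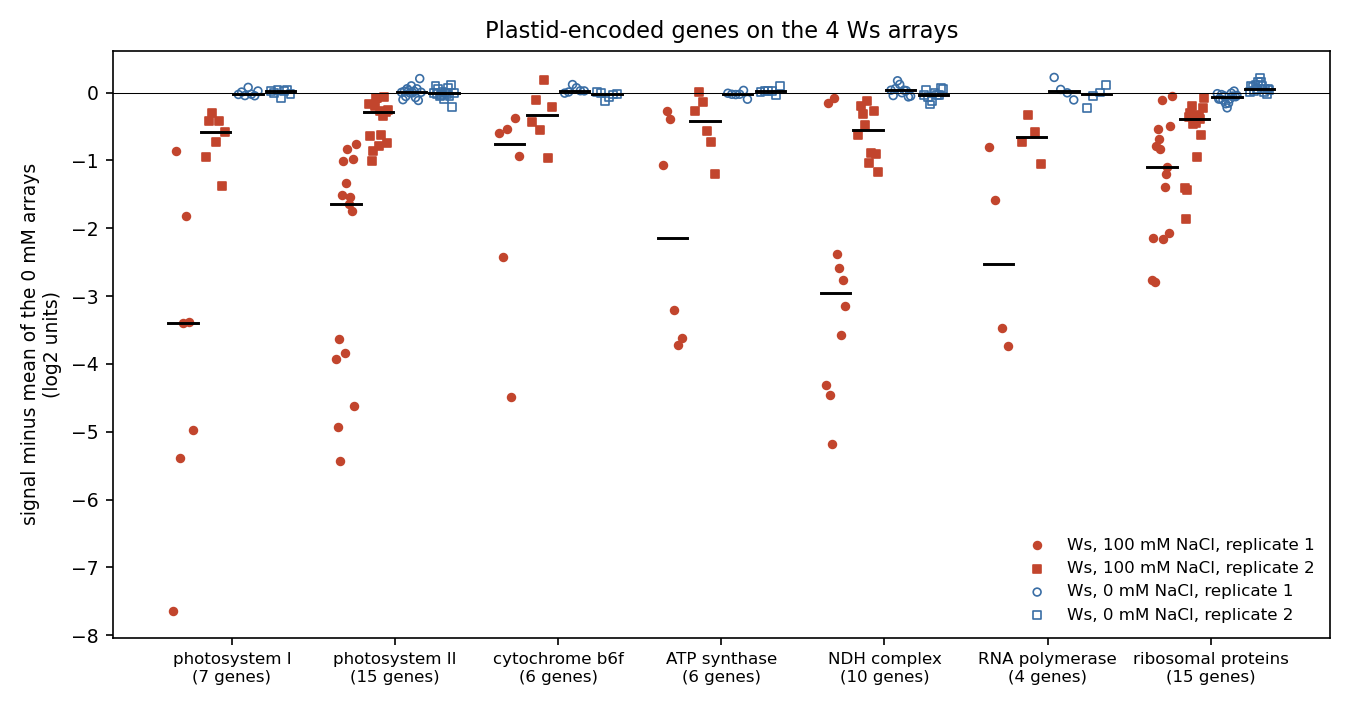
Signal of plastid-encoded genes of 7 complexes, each minus its mean on the 2 unsalted arrays, in log2 units (y axis), on each of the 4 Ws arrays by complex (x axis), with black bars at the medians. Filled red marks are Ws_100mM (circles replicate 1, squares replicate 2) and open blue marks Ws_0mM, and in every complex the median of Ws_100mM replicate 1 lies lower than that of replicate 2, while both lie under 0.

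The 25S rRNA probe set moved in the same order, at 4.98 and 7.88 in Ws_100mM and 9.94 and 10.36 in Ws_0mM. The actin and dap values given above set Ws_100mM replicate 1 apart as well, and the part of RNA quality or labelling in the plastid values was not tested. Without Ws_100mM replicate 1 none of the 69 passed in limma, 6 had an unadjusted p under 0.05 (9.83% of all genes did), and rpl16 changed by -1.86 and rpl14 by -1.41.

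The same salt regime gave 4764 calls in Col (20.9%) and 30 in Colgl (0.132%). Of the 1072 Ws calls 727 were also called in the same direction in Col, 67.8% of the Ws list and 15.3% of the Col list, and 8 were called in the opposite direction. Across all probe sets the fold changes of Ws and Col correlated at r = 0.73, and at r = 0.65 without the 2 arrays with low dap signal. These 2 arrays are one salted replicate each of Ws and Col and shared deviations from their groups (r = 0.70 across probe sets). Probe sets are not independent replicates, so no p is given.

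Fold changes of Ws and Colgl correlated at r = 0.07, and 6 of the Ws calls were called in the same direction in Colgl and 4 in the opposite one. The median change in Col was 0.97 for probe sets that rose in Ws and -0.76 for those that fell. In Colgl these medians were 0.08 and -0.12. The test of the difference itself found 34 probe sets whose salt response differed between Ws and Col (0.149%), and 125 between Ws and Colgl (0.55%). Leaving out any single array of the groups compared gave 5 (Ws_0mM replicate 2) to 50 (Col_100mM replicate 2) for Col and 22 (Ws_0mM replicate 1) to 388 (Ws_100mM replicate 2) for Colgl. Of the 1072 Ws calls 12 differed from Col and 100 from Colgl.

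**Figure D5:**
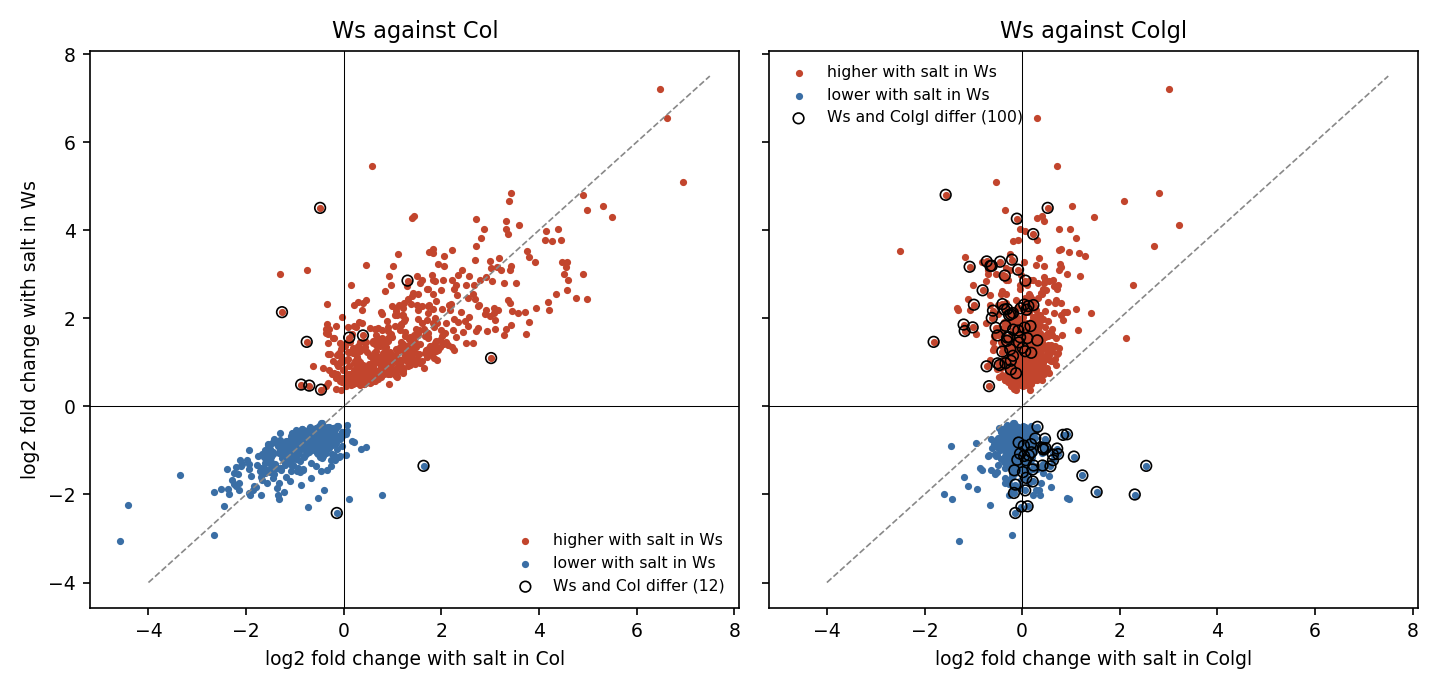
Log2 fold change with salt in Ws (y axis) against that in Col (left, x axis) and in Colgl (right, x axis) for the 1072 probe sets that passed in Ws, red where higher and blue where lower with salt in Ws. Black rings mark probe sets whose response differed from Ws by the test of the difference (12 for Col, 100 for Colgl), the dashed line marks equal changes, and the Colgl values gather near 0.

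In Colgl the probe sets that rose in Ws had nearly equal median levels with and without salt. The 597 probe sets had median levels of 8.31 in Ws_100mM, 6.57 in Ws_0mM, 8.0 in Colgl_100mM and 7.95 in Colgl_0mM, while the median of all probe sets was 5.88 in Colgl_0mM. For 174 of the 597 (29.1%) the unsalted Colgl mean exceeded the salted Ws mean, against 49 (8.21%) for unsalted Col. Over all probe sets these shares were 51.1% and 57.1%. EXLA1 averaged 9.72 ± 0.42 in Ws_100mM and 5.28 ± 0.04 in Ws_0mM, and 11.03 ± 0.08 in Colgl_100mM and 11.37 ± 0.02 in Colgl_0mM (SD, n = 2 each). STZ averaged 7.72 ± 0.70 in Ws_100mM and 4.71 ± 0.26 in Ws_0mM, and 8.85 ± 0.15 in Colgl_100mM and 9.55 ± 0.05 in Colgl_0mM. The 475 that fell in Ws had median levels of 7.38 in Ws_100mM, 8.30 in Ws_0mM, 7.53 in Colgl_100mM and 7.54 in Colgl_0mM. For 183 of these (38.5%) the unsalted Colgl mean lay under the salted Ws mean, against 38 (8%) for unsalted Col, where the shares over all probe sets were 48.9% and 42.9%. These probe sets were chosen for being low or high in Ws_0mM, so the levels are a description and no test is given. Whether the lines were grown and processed together was not tested.

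The gene groups described above can be set beside the other wild types. In Col 10 of the 26 nuclear NDH and assembly genes fell and 1 rose, 5 of the 12 RNA polymerase genes rose, and 4 of the 13 glutathione transferase genes fell, where 9.03% of all genes rose and 10.4% fell in Col. Their median changes in Colgl were -0.15, 0.09 and -0.16.

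Several genes described above responded differently in Ws and Colgl. COR47 averaged 10.98 ± 0.04 in Colgl_100mM and 11.01 ± 0.13 in Colgl_0mM, and its response was 2.26 ± 0.40 log2 units larger in Ws (adjusted p = 0.0234). COR15A and PORB also responded more in Ws, by 1.44 ± 0.26 and 1.34 ± 0.23 (adjusted p = 0.0252 and 0.0181). SDH2-2 had changes of 0.46 in Ws and -0.68 in Colgl, a difference of 1.14 ± 0.16 (adjusted p = 0.005). It also fell in Col, by 0.36 on the log2 scale (adjusted p = 0.039 in limma). The difference between Ws and Col for SDH2-2 did not pass (0.81 ± 0.16, adjusted p = 0.0707 in limma).

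Plastid genes had median changes of opposite sign in Ws and Colgl. Their median change was -1.17 in Ws, -0.45 in Col and 0.88 in Colgl. The difference passed for rpl16, psaB, rps2 and atpA, where 0.479% of all genes differed. Their log2 fold changes were -2.0, -0.63, -1.35 and -0.67 in Ws and 2.31, 0.92, 1.92 and 1.45 in Colgl. The salt response within Ws did not pass for rps2 and atpA (adjusted p = 0.0756 and 0.205 in limma). Within Colgl psaB passed (adjusted p = 0.044), and rpl16, rps2 and atpA did not (0.172, 0.137 and 0.0755). Against the mean of Ws_0mM, the Ws median was -1.98 on Ws_100mM replicate 1 and -0.42 on replicate 2. The Col median includes Col_100mM replicate 1, which also stood apart. Control signals differed within Colgl too. The 25S rRNA probe set read 9.68 and 9.58 in Colgl_100mM and 8.73 and 8.31 in Colgl_0mM. The dap mean was 7.93 and 7.94 in Colgl_100mM and 8.86 and 8.85 in Colgl_0mM. The part of RNA quality or labelling in the Colgl plastid values was not tested. Between Ws and Col none of the 69 differed in limma, where 0.12% of all genes did, and 7 had an unadjusted p under 0.05 (7.47% of all genes did).

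The genes most unlike in Ws and Col by p included AT4G19430, AT3G15310 and AT3G62820, to which the tables used here give no name. AT4G19430 read 5.82 and 5.58 in Ws_100mM and 4.2 and 4.07 in Ws_0mM, a rise of 1.56 ± 0.14 (adjusted p = 5.3e-05). In Col it averaged 3.74 ± 0.18 with salt and 3.63 ± 0.09 without. AT3G62550 rose in both, to 11.32 and 11.09 in Ws_100mM, against 8.17 and 8.53 in Ws_0mM, and its response was 1.55 ± 0.28 larger in Ws (adjusted p = 0.039). AT5G05250 fell in Ws, by 1.35 on the log2 scale, and rose in Col by 1.64 and in Colgl by 2.54. Its fall in Ws did not pass without Ws_100mM replicate 1 (-1.12, adjusted p = 0.345).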

How the data were processed

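Per the submitters' processing notes, GCOS and RMA were used, with no version stated there. The authors deposited RMA signals on the log2 scale, and these were analysed without further normalization. RMA equalizes array distributions, which hides a change shared by most probe sets. Control probe sets (64 of 22810) were left out. In the platform annotation 13513 of the 22746 others had 1 gene, 503 several and 8730 none. RefSeq (TAIR10.1) gave current symbols for 13436 through their gene IDs. Each gene is shown at the single-gene probe set with the highest mean. Of 434 listed genes 56 were measured.

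Limma 3.58.1 in R 4.3.3 fitted 1 mean per group over all 24 arrays (12 residual and 3.11 prior degrees of freedom, two-sided, Benjamini-Hochberg over probe sets, adjusted p under 0.05). Differences between Ws and the other wild types were tested as interactions. Named genes were the 15 largest rises and 15 largest falls that passed with non-overlapping groups, up to 6 passing and 3 other members per group, and the 6 smallest p-values per interaction. Members, lists and families were chosen with earlier results of these data known, and 29 families were added after seeing results. Scripts were tested on simulated data. Tables and figures used Python 3.11.15, pandas 2.3.3 and matplotlib 3.10.9.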

Additional observations from a re-analysis of the deposited data

Results flagged for a closer look

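Salt responses that differed between Ws and another wild type, by the test of the difference, were set aside for a closer look. Against Col these were 34 probe sets, and the genes with the smallest p had differences (Ws minus Col, log2 units) of 1.52 for AT3G15310, 1.45 for AT4G19430, 1.37 for AT1G09230, 1.41 for AT3G62820, -1.63 for AT1G33590 and -1.75 for AT5G64870. The difference in AT3G15310 came from Col, where it averaged 3.73 ± 0.07 with salt and 5.26 ± 0.16 without (SD, n = 2), while Ws did not pass (-0.01 ± 0.12 SE, adjusted p = 0.981). AT1G09230, whose RefSeq synonym is U11/U12-65K, a protein of the minor spliceosome, rose by 0.49 in Ws and fell by 0.87 in Col. Its rise in Ws did not pass without Ws_100mM replicate 1 (adjusted p = 0.294).

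Against Colgl 125 probe sets differed. The differences (Ws minus Colgl) were 2.79 for AT3G62550, 1.87 for AT4G19430, -3.89 for AT5G05250, -1.70 for AT4G26950, -2.26 for AT1G78450 and 3.74 for AT1G32920. AT1G32920 averaged 10.23 ± 0.34 in Ws_100mM and 6.94 ± 0.00 in Ws_0mM, and 10.20 ± 0.05 in Colgl_100mM and 10.65 ± 0.00 in Colgl_0mM. Explanations for these differences were not tested.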

How the results depend on the processing

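The Ws count of 1072 was 656 in a fit of the 8 arrays of the Ws background, 880 (651 higher, 229 lower) in a fit of the 4 Ws arrays, 2494 with array weights, 278 without the 2 arrays with low dap signal, 520 among probe sets paired with 1 gene (fewer tested) and 551 at 2-fold or more. Leaving out 1 array gave 123 to 1775. The count of 34 for Ws minus Col was 324 with the 8 arrays compared, 255 with weights, 21 after quantile normalization, 11 without the dimmest 40%, 22 without the 2 arrays, 15 with single-gene probe sets and 5 to 50 without 1 array. The 125 for Ws minus Colgl was 1396, 1473 and 40 under the first, second and single-gene settings, and 22 to 388 without 1 array. Centring, quantile normalization, an intensity trend and the filter on dim probe sets kept the Ws count between 995 and 1369. With the replicate number as a block (replicate block) it was 1213, and 35 and 116 for the differences. Deviations of replicate 1 in Ws_100mM and Ws_0mM correlated at r = 0.03. Between the salted and unsalted groups of the other lines this r ran from -0.36 (Colgl) to 0.55 (M6PR). Ws_100mM replicate 1 stood apart, so the value for Ws cannot show whether the numbers pair its arrays. None of the 95 named genes that passed reversed under the 13 settings tried; 29 still passed without Ws_100mM replicate 1, and 18 and 20 without Ws_0mM replicate 1 or 2. Where the 2 groups of arrays do not overlap, leaving out 1 array could not have reversed a gene. Dim probe sets limit what could be called.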

Other observations

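Further genes with known products, chosen after their values were seen, passed in Ws. CHI, a chitinase gene, rose by 3.09 log2 units (adjusted p = 0.00825), while MYC4, a transcription factor of the jasmonate response, fell by 1.52 (adjusted p = 0.022). PMEAMT, a methyltransferase on the route to phosphocholine, fell by 1.04 (adjusted p = 0.00394), and the zinc transporter gene ZIP6 fell by 0.85 (adjusted p = 0.0496). CHI (3.61, adjusted p = 0.0199) and PMEAMT (-1.01, adjusted p = 0.0366) passed without Ws_100mM replicate 1, while MYC4 (-1.25, adjusted p = 0.209) and ZIP6 (-0.57, adjusted p = 0.446) did not.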
